A study of Mus musculus with 14 samples.

Results

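Prostaglandins are lipid signals made on demand from arachidonate, a fatty acid that phospholipases such as cytosolic phospholipase A2 (Pla2g4a) release from membranes. The cyclooxygenases Ptgs1 and Ptgs2 turn arachidonate into prostaglandin H2, and terminal synthases convert this intermediate into prostaglandin E2 (Ptges, Ptges2), prostaglandin D2 (Ptgds) or prostacyclin (Ptgis). Prostaglandin E2 acts through receptors that include Ptger2 and Ptger4, and 15-hydroxyprostaglandin dehydrogenase (Hpgd) starts its breakdown. In brain tissue, Ptgs2 is the inducible cyclooxygenase and Ptgds is one of the more abundant products of the leptomeninges, the choroid plexus and some glia.

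These 10 genes, Hpgd, Ptgs1, Ptgs2, Ptges, Ptges2, Ptgds, Ptgis, Pla2g4a, Ptger2 and Ptger4, were followed in cultured mouse astrocytes with and without connexin43 (Cx43, gene Gja1), the main gap junction protein of astrocytes. They were chosen on the siRNA contrast, because Hpgd and Ptgs2 differed in opposite directions between wild-type cells and cells given a small interfering RNA (siRNA) against Cx43. The values of that contrast below are a description without a test. A probe carrying the gene symbol was found for 8 of the 10 genes, at 10 probes of the 33600 on the array, which name 13661 genes in all. Ptgs1 and Pla2g4a had no such probe and were not analysed here.

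The study compared astrocytes cultured from newborn wild-type mice, from mice lacking Cx43 (called null) and from wild-type mice with the siRNA construct transfected at confluence. The design text gives the exposure as 36 h and the protein check as 48 h, and the labels mention neither a mock transfection of the wild-type cells nor a control siRNA, so transfection and loss of Cx43 cannot be told apart in the siRNA samples. Sample titles call the cells cortical, while the culture protocol starts from whole brain; no label states the strain or how the null allele was made. The design text counts 4 independent cultures per group, but the labels do not say which sample came from which culture. The p-values below therefore rest on the spread among samples, part of which may be technical.

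Each sample was 20 ug of total RNA labelled with Cy3 (odd replicate numbers) or Cy5 (even numbers) and read on spotted oligonucleotide arrays. The authors deposited 1 log2 value per probe and sample, centred on 0 within each sample; a difference of 1 is a factor of 2, and a missing value carries no reason. Values were used from 3 wild-type samples (replicates 3, 4 and 6), 4 null and 4 siRNA samples, with 17849 to 26826 probes measured per sample. Wild-type replicates 1, 2 and 5 stood apart from the rest, with a correlation across probes with the mean of the others of 0.38 at most, against 0.89 to 0.95 for the 11 samples used. Replicates 1 and 2 of the null and siRNA groups also differed from replicates 3 and above, so the limma model carried this replicate set and the dye as covariates. The wild-type samples used are all replicates 3 and above, so the set effect came from null and siRNA samples alone. Calls against wild type rest on taking that effect as equal in all groups. Yet null minus siRNA itself differed between the sets at 21.2% of 14728 probes (limma, adjusted p under 0.05). Consecutive samples of opposite dye may share an array, and a fit with these array pairs as a random block is given where it ends a call.

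Gja1 itself read 6.08, 7.53 and 4.82 in the wild-type samples. The null values were -1.17, -1.06, 2.82 and 3.03, and the siRNA values 1.93, 2.14, 5.47 and 5.70. All null samples lay below all wild-type samples, by a log2 difference of -3.31 ± 0.58 (SE; limma, Benjamini-Hochberg adjusted p = 0.0401), whereas siRNA replicates 3 and 4 lay within the wild-type range and the siRNA difference was -0.41 ± 0.58 (adjusted p = 0.732). With array pairs as a random block the null difference had an adjusted p of 0.253, and leaving out single samples gave adjusted p-values from 0.00119 to 0.232. The design text gives a 3.24 times lower Cx43 mRNA after siRNA, a log2 fall of 1.70, and the 95% confidence interval of the siRNA difference here ran from -1.67 to 0.85.

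The DNA just upstream of the 3 genes with differences between null and siRNA samples is shown because these genes did not move alike. RefSeq windows of the GRCm38.p6 assembly were at hand for 9 of the 10 genes. The 250 bases before the listed start of Hpgd lie at chr8:56294302-56294551 (plus strand), those of Ptgs2 at chr1:150099781-150100030 (plus strand) and those of Ptgds at chr2:25469750-25469999 (minus strand). The Ptgds window belongs to the start used in the RefSeq promoter table; the annotated gene reaches further upstream, to position 25470110, so this window lies within it. Capitals mark matches to a set of 6 short motifs, searched on both strands of 300 bases that include the first 50 of the gene.
Hpgd: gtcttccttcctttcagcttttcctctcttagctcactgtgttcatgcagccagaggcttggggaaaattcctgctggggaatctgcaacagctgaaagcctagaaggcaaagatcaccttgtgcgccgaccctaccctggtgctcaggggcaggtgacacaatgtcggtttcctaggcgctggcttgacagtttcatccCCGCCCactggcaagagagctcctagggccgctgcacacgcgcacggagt
Ptgs2: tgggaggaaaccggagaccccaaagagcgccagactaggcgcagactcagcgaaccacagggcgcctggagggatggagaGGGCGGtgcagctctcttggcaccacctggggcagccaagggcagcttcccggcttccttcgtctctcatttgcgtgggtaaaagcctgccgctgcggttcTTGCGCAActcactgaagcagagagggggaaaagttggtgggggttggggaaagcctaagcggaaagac
Ptgds: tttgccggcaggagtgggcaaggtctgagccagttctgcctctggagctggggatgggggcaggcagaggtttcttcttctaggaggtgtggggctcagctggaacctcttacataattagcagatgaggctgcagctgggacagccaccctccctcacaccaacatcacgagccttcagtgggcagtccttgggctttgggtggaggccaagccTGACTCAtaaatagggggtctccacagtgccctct

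In the Ptgs2 window, the C/EBP palindrome TTGCGCAA stood at -69 to -62 relative to the start, a match held by 0.183% of 32851 windows of the same length. The GC box GGGCGG, held by 35.7% of windows, lay further upstream of Ptgs2 and, on the opposite strand, at -50 to -45 in Hpgd. The AP-1 motif TGANTCA (7.81% of windows) stood at -35 to -29 in Ptgds. The first 50 bases of Ptgs2, not printed, held the E-box CACGTG (7.15%) and the overlapping CRE core TGACGT (7.51%), and those of Hpgd held TATAAA (13.6%). These matches describe letters in a window and were not tested for binding.

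Hpgd, the dehydrogenase that inactivates prostaglandins, was high in wild-type and null cells and low in every siRNA sample. Its log2 values were 4.40, 4.24 and 4.20 in the wild-type samples (mean 4.28 ± 0.11, SD, n = 3). They were 3.96, 3.41, 2.41 and 4.42 in the null samples (mean 3.55 ± 0.87, SD, n = 4). The siRNA samples read -1.72, -1.65, -0.54 and -0.34 (mean -1.06 ± 0.73, SD, n = 4). The siRNA range lay clear of both other groups, whereas the null and wild-type ranges overlapped, null replicate 3 being the lowest of the null samples.

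Null minus wild type was -0.44 ± 0.55 (SE; 95% confidence interval -1.63 to 0.75; limma, adjusted p = 0.746), so no difference was detected for Hpgd in the null cells, and the interval reaches down to -1.63. As a description, Hpgd lay 33.1-fold lower in siRNA than in wild-type samples (log2 difference -5.05 ± 0.55, SE) and 24.4-fold higher in null than in siRNA samples (4.61 ± 0.46, SE). This last contrast reuses the siRNA samples that chose the gene. Within replicates 1 and 2, null minus siRNA was 5.37, and within replicates 3 and 4 it was 3.85; the difference between these sets was -1.52 ± 0.78 (SE; limma, adjusted p = 0.201), against 21.2% of 14728 probes called for such a difference.

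Ptgs2, the inducible cyclooxygenase that supplies prostaglandin H2, showed the opposite order. Wild-type samples read 0.31, -2.32 and -1.03 (mean -1.01 ± 1.32, SD, n = 3). Null samples read -1.14, -1.03, 0.62 and -2.52 (mean -1.02 ± 1.29, SD, n = 4). The siRNA samples read 2.51, 2.66, 3.43 and 2.79 (mean 2.85 ± 0.41, SD, n = 4). All 4 siRNA samples lay above every other sample, while wild-type and null values covered the same range.

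Null minus wild type for Ptgs2 was -0.03 ± 0.64 (SE; 95% confidence interval -1.43 to 1.37; limma, adjusted p = 0.988). The siRNA samples lay 14.2-fold above wild type (3.83 ± 0.64, SE), and the null samples 14.5-fold below the siRNA samples (-3.86 ± 0.54, SE), both given as descriptions. Null minus siRNA was -3.67 within replicates 1 and 2 and -4.06 within replicates 3 and 4. High Ptgs2 thus stood beside low Hpgd in each of the 4 siRNA samples and in none of the 4 null samples. Among the null samples, replicate 3 had both the lowest Hpgd and the highest Ptgs2, and replicate 4 the highest Hpgd and the lowest Ptgs2. The wild-type samples did not show that order, replicate 3 being the highest in both. Null replicates 3 and 4 also differed in dye. Ptgs2 was lower in replicate 4 than in replicate 3 in wild-type (-2.32 and 0.31) and siRNA samples (2.79 and 3.43) as well. Replicates 1 and 2 differed in dye too, but Ptgs2 was higher in replicate 2 (null -1.03 against -1.14, siRNA 2.66 against 2.51). Whether Hpgd and Ptgs2 were related within the null samples was not tested.

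**Figure D1:**
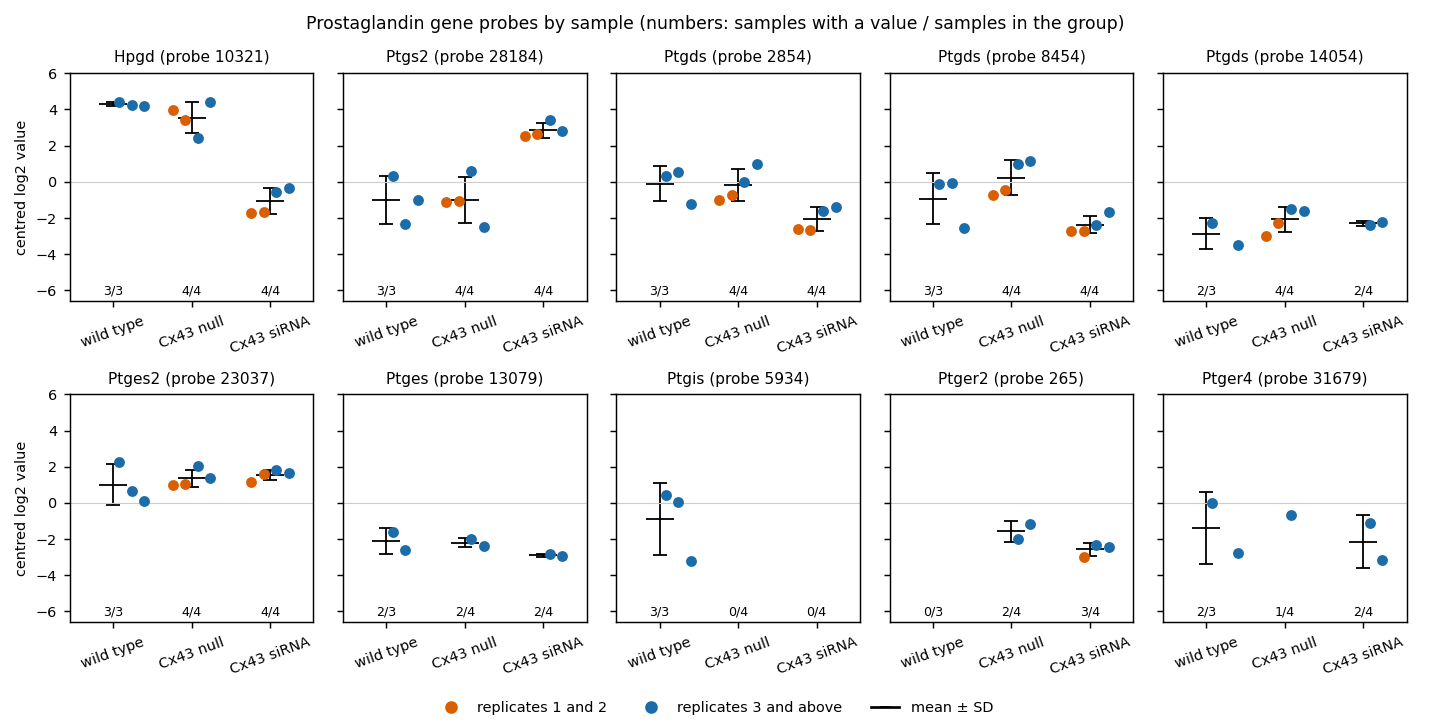
Centred log2 values (vertical axis) of the 10 probes of 8 prostaglandin genes in wild-type, Cx43 null and Cx43 siRNA samples; each point is a sample, colours separate replicates 1 and 2 from replicates 3 and above, and black bars give the mean ± SD of the measured samples. Hpgd is below 0 and Ptgs2 above 2 in all 4 siRNA samples only, and Ptgis has values in the wild-type group only.

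Ptgds, lipocalin-type prostaglandin D synthase, had 3 probes, which did not give the same result. At probe 2854 the wild-type samples read 0.32, 0.56 and -1.23. The null samples there read -0.99, -0.72, -0.01 and 0.99, and the siRNA samples -2.61, -2.65, -1.62 and -1.38. Every siRNA sample lay below every wild-type and null sample at this probe.

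At probe 8454 the wild-type samples read -0.14, -0.09 and -2.57. The null samples read -0.70, -0.46, 0.96 and 1.15, and the siRNA samples -2.70, -2.71, -2.37 and -1.69. The siRNA and null samples did not overlap here, but wild-type replicate 6 lay among the siRNA samples. At probe 14054 values were lower and partly missing: -2.26 and -3.48 in 2 wild-type samples, -2.97, -2.26, -1.48 and -1.60 in the null samples, and -2.38 and -2.20 in 2 siRNA samples, with all groups overlapping.

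Ptgds was higher in null than in siRNA samples at 2 of its 3 probes, by 1.88 ± 0.42 (SE; 3.69-fold; limma, adjusted p = 0.0253) at probe 2854 and by 2.60 ± 0.52 (SE; 6.07-fold; adjusted p = 0.0168) at probe 8454, with all 4 null samples above all 4 siRNA samples at both. At probe 14054 the same difference was 0.75 ± 0.56 (SE; adjusted p = 0.455). The calls did not hold with array pairs as a random block (adjusted p = 0.148 and 0.0873), and leaving out single samples gave adjusted p-values of 0.00469 to 0.102 at probe 2854 (lost when null 2, null 4, siRNA 3 or siRNA 4 was left out) and 0.00119 to 0.0715 at probe 8454 (lost when null 4, siRNA 3 or siRNA 4 was left out). Against wild type the null differences were 0.57 ± 0.51, 1.73 ± 0.63 and 1.33 ± 0.56 (SE), of which none passed the test (adjusted p = 0.626, 0.182 and 0.27).

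Markers of ependyma and choroid plexus, where Ptgds is known to be made, moved with Ptgds. The mean log2 value of the 5 of 7 such markers measured in every sample was 0.41 to 2.44 in wild-type, 0.57 to 2.92 in null and -1.12 to -0.23 in siRNA samples. Of the 7 tested, 4 were higher in null than in siRNA samples (Ttr, Foxj1, Folr1 and Ccdc39), beside 3.61% of all probes tested, and only Ccdc39 was called with array pairs as a random block. None of the 7 were called by limma between null and wild type, beside 0.59% of all probes tested, and 3 had an unadjusted p under 0.05. Dnah11 was called higher in null in replicates 3 and above alone and after quantile normalization. The part of these markers in the Ptgds result was not tested. In RNA from whole cultures, fewer cells of a type and less RNA per cell cannot be told apart.

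The synthases of prostaglandin E2 showed no called difference. Ptges2, the constitutive membrane-associated form, read 2.27, 0.66 and 0.10 in wild-type samples, 0.99, 1.03, 2.03 and 1.37 in null samples and 1.17, 1.59, 1.82 and 1.66 after siRNA. The ranges overlapped throughout. Its null minus wild type difference was 0.52 ± 0.49 (SE; 95% confidence interval -0.54 to 1.58; limma, adjusted p = 0.651) and its null minus siRNA difference -0.21 ± 0.41 (SE; interval -1.09 to 0.68; adjusted p = 0.796).

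Ptges, the inducible microsomal form often studied together with Ptgs2, was measured only among replicates 3 and above. Its wild-type values were -1.61 and -2.61, its null values -2.02 and -2.36, and its siRNA values -2.85 and -2.95. The siRNA samples, in which Ptgs2 was high, held the lowest Ptges values. Null minus siRNA was 0.71 ± 0.51 (SE; interval -0.46 to 1.88; limma, adjusted p = 0.439) and null minus wild type -0.08 ± 0.51 (SE; interval -1.25 to 1.10; adjusted p = 0.962).

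Ptgis, prostacyclin synthase, had a value in all 3 wild-type samples (0.45, 0.08 and -3.20) and in 0 of the 8 null and siRNA samples. This pattern was shared by 13 of 33600 probes (0.0387%). Since a missing value may mark a dim or a damaged spot, no fold was computed. The wild-type values spread over more than 3 log2 units, and the probe could not be fitted.

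The prostaglandin E2 receptors Ptger2 and Ptger4 did not have at least 2 values in every group and were not tested. Ptger2 had no value in the wild-type samples, read -2.01 and -1.15 in 2 null samples and -2.98, -2.31 and -2.41 in 3 siRNA samples. Ptger4 read 0.00 and -2.78 in 2 wild-type samples, -0.67 in 1 null sample and -1.11 and -3.17 in 2 siRNA samples. Ptger4 values of all groups thus spread widely, and the 2 receptors give no comparison against wild type that rests on more than 2 wild-type values.

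Counted together, 7 probes of 5 genes were measured in at least 2 samples of each group and tested. Between null and wild type, 0 of the 7 were called by limma at an adjusted p under 0.05 (2 had an unadjusted p under 0.05, both probes of Ptgds), where 0.59% of 20342 probes were called, 0.472% higher and 0.118% lower (120 probes, 3461 at an unadjusted p under 0.05). The median difference of the 7 was 0.52, against 0.27 over all probes tested. Between null and siRNA, 4 of the 7 were called, 3 of them higher in null (Hpgd and 2 probes of Ptgds) and 1 lower (Ptgs2), where 5.88% of all probes were called, 3.61% higher and 2.27% lower. Hpgd and Ptgs2 were chosen for their siRNA values, so nothing is read from this count. Between siRNA and wild type the rule itself fixed the calls of these genes, 2 of 7 probes (Ptgs2 higher, Hpgd lower) beside 7.38% of all probes, 5.43% higher and 1.96% lower. The 3 comparisons share samples pairwise, so their values are set side by side and not as independent results. With same-numbered samples as a block, the calls over all probes were 368 (null against wild type) and 2282 (null against siRNA).

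**Figure D2:**
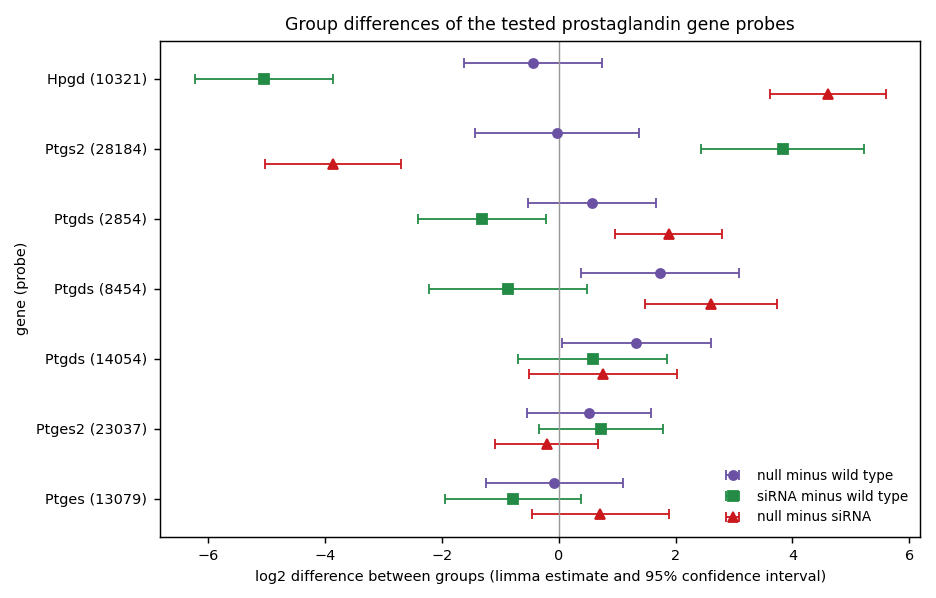
Log2 differences (horizontal axis) of the 7 tested probes of 5 prostaglandin genes for null minus wild type, siRNA minus wild type and null minus siRNA, as limma estimates with 95% confidence intervals. The null minus wild type intervals of Hpgd (-1.63 to 0.75) and Ptgs2 (-1.43 to 1.37) include 0, while their differences involving siRNA samples point in opposite directions.

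The wider eicosanoid pathway was described with a list of 82 genes, of which 72 had a probe and 53 a tested one, counting 1 probe per gene. In null against wild-type cells 0 of the 53 were called by limma (6 at an unadjusted p under 0.05), beside 0.59% of all probes tested. The median difference was 0.13 beside 0.27 for all probes. Between null and siRNA samples 7 were higher in null and 2 lower, beside 3.61% and 2.27% of all probes, with a median of 0.09 beside 0.11. Without Hpgd, Ptgs2 and the other chosen genes this was 5 higher and 1 lower of 48. With array pairs as a random block the count over the 53 fell from 9 to 2, and leaving out single samples gave 5 to 10. The 2 were Hpgd and Ptgs2, which were chosen for their siRNA values, so nothing is read from their calls staying.

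Among the synthesis genes outside the chosen 10, Hpgds and Tbxas1 were higher in null than in siRNA samples. Hpgds, the haematopoietic prostaglandin D synthase, had null values of 0.34, 0.32, -0.31 and -0.85 and siRNA values of -2.26, -1.95, -1.54 and -2.03. The null and siRNA samples did not overlap, and the difference was 1.82 ± 0.42 (SE; limma, adjusted p = 0.0279). Of its wild-type values, 0.11 and 0.25 lay within the null range, and -1.34 lay between the null and siRNA ranges. Tbxas1, thromboxane synthase, had null values of 2.02, 1.99, 0.94 and 2.42, and -0.59 and -0.25 in the 2 siRNA samples with a value, a difference of 2.10 ± 0.50 (SE; adjusted p = 0.0393), with 1.84, 2.17 and 2.15 in wild-type samples. Leaving out single samples gave adjusted p-values up to 0.0847 for Hpgds and 0.24 for Tbxas1. Neither call held with array pairs as a random block or after scale normalization. Both were also lost with wild-type replicates 1 and 2 added at their matched positions.

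Breakdown genes other than Hpgd did not follow it. Ptgr1, prostaglandin reductase 1, which acts after Hpgd on the 15-keto product, was lower in null than in siRNA samples by -2.53 ± 0.38 (SE; limma, adjusted p = 0.00422). Its null values were 2.33, 2.27, 4.13 and 3.73, its siRNA values 4.95, 5.39, 5.61 and 6.64, and its wild-type values 4.19, 3.02 and 3.46. All 4 siRNA samples were above all others, the reverse of Hpgd. The Ptgr1 call did not hold with array pairs as a random block or after scale normalization. In this group of 6 tested genes (breakdown and transport), Hpgd alone was higher in null and 1 was lower. Over all probes tested these shares were 3.61% and 2.27%. The other 4 were not called, with differences of -0.98 to -0.65 between null and siRNA.

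The arachidonate release group, in which Pla2g4a itself had no probe, had 0 of 18 tested genes called in either comparison by limma. An unadjusted p under 0.05 was found for 2 (null against wild type) and 4 (null against siRNA). Over all probes tested, 0.59% and 5.88% were called in these comparisons, so nothing is read from a count of 0 in groups of this size. The receptor group had 0 of 8 called in both, with 1 at an unadjusted p under 0.05 in each. It includes the other prostaglandin E2 receptors, Ptger1 and Ptger3, with null minus wild type differences of 0.65 ± 0.54 (SE; limma, adjusted p = 0.6) and -0.35 ± 0.40 (SE; adjusted p = 0.72). Its largest difference, in Pparg, a nuclear receptor for prostaglandin J2 products, was -6.62 (null minus wild type) and was not called. Wild-type replicates 3 and 4 read 6.40 and 7.87 there, while wild-type replicate 6 read -0.83, 2 null samples -2.34 and -1.78, and the siRNA samples -2.70 to -1.78. This call depended on the fit: Pparg was called in replicates 3 and above alone and with same-numbered samples as a block, the latter without wild-type replicate 6. Pla2g2d of the release group was called between null and wild type in replicates 3 and above alone and without wild-type replicate 3. Between null and siRNA, Pla2g2d and Ptgfr were called in replicates 3 and above alone and with the block. Pla2g2d was also called without wild-type replicate 3, and Ptgfr without wild-type replicate 6. Anxa1 was called there in replicates 3 and above alone, and Pla2g5 with the block.

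In the lipoxygenase and epoxygenase group, 3 of 10 tested genes were higher in null than in siRNA samples, beside 3.61% of all probes tested. Alox5ap, the helper protein of 5-lipoxygenase, differed by 2.11 ± 0.37 (SE; limma, adjusted p = 0.00862). Its null values of 4.02, 4.29, 1.44 and 2.30 overlapped the siRNA values of 2.39, 2.79, -1.69 and 0.13, although null 1 and 2 lay above siRNA 1 and 2, and null 3 and 4 above siRNA 3 and 4. With wild-type replicates 1 and 2 added at their matched positions, the adjusted p was 0.314. The epoxygenase Cyp2j9 differed by 2.14 ± 0.37 (SE; adjusted p = 0.00837) at probe 4366 but by -0.19 (adjusted p = 0.848) at probe 32366. Its null values at probe 4366 (1.52, 1.15, 3.24 and 3.85) overlapped the siRNA values (-0.80, -0.51, 1.17 and 1.33), though not within either replicate set. Cyp4f18 differed by 1.81 ± 0.42 (SE; adjusted p = 0.0283). Leaving out single samples gave adjusted p-values of 0.015 to 0.0974 for Cyp4f18, and 7 of 11 such fits lost its call. With array pairs as a random block, the calls of Alox5ap, Cyp2j9 and Cyp4f18 were all lost. Both cytochromes belong to families of close paralogs, so their probes may read more than 1 gene. Gstm2, a glutathione transferase of the synthesis group, lay -2.27 below wild type in siRNA samples, a description, and its null minus siRNA difference of 1.47 was not called (adjusted p = 0.0978).

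**Figure D3:**
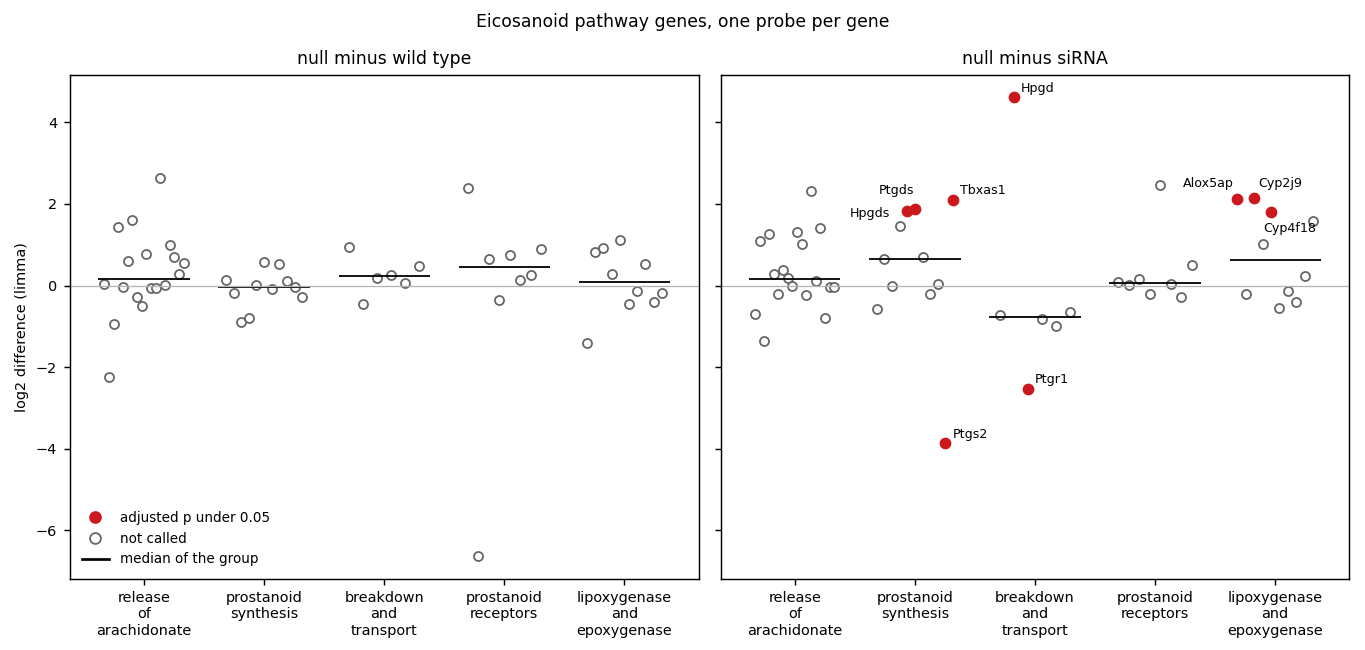
Log2 differences (vertical axis) of 53 eicosanoid pathway genes, 1 probe per gene, in 5 groups by role, for null minus wild type (left) and null minus siRNA (right); filled points were called at an adjusted p under 0.05 and black lines are group medians. No gene is filled on the left, and 9 are filled on the right, with Hpgd highest at 4.61 and Ptgs2 lowest at -3.86.

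Marker genes of microglia, a common companion of astrocytes in culture and a known source of Hpgds, Tbxas1 and Alox5ap, moved with these genes. The mean log2 value of the 13 of 18 microglial markers measured in every sample was 3.36 to 3.99 in wild-type, 2.31 to 4.72 in null and 1.83 to 2.37 in siRNA samples. Of 14 tested, 6 were higher in null than in siRNA samples, beside 3.61% of all probes tested. With array pairs as a random block 2 were called, Laptm5 and Coro1a. All 14 differences were positive (0.72 to 2.60, median 1.45 beside 0.11 for all probes). Between null and wild type 0 of 14 were called, beside 0.59% of all probes tested, with 2 at an unadjusted p under 0.05. In replicates 3 and above alone, C1qc and Ly86 were called lower in null than in wild type. The part of the microglial markers in the results on Hpgd, Hpgds, Tbxas1 and Alox5ap was not tested. Aif1, Itgam, Tyrobp, Laptm5 and C1qa of this list had values in all 11 samples. P2ry12 had a value in 5 of them and was not tested. Csf1r, Cx3cr1 and Cd68 had no probe, so these microglial markers could not be checked.

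Of the 16 astrocyte markers, 9 were measured throughout, Gja1 among them. Without Gja1 the other 8 averaged 3.74 to 4.37 in wild-type, 3.56 to 4.41 in null and 1.94 to 3.26 in siRNA samples. These averages overlapped between null and wild-type samples and were lower in siRNA samples, but not every marker followed them. Of 13 tested, 3 were higher in null than in siRNA samples (Aldoc by 3.30, Slc4a4 by 1.87 and Sox9 by 1.31), beside 3.61% of all probes tested. Gja1 was lower, beside 2.27% of all probes, and the median difference was 1.10. Of the 13 differences 9 were positive. Aldh1l1 (-1.10), Fabp7 (-0.79) and Slc1a2 (-0.61) were negative like Gja1 but not called. Aldh1l1 was also 1.82 higher in siRNA than in wild-type samples (limma, adjusted p = 0.0374). With array pairs as a random block only Aldoc kept its call. Their part in the results on the prostaglandin genes was not tested. Aqp4, Aldoc and Aldh1l1 were measured in every sample, but the Gfap probe had a value in 0 of them, so the best known astrocyte marker could not be checked. Fibroblast and meningeal markers, which bear on Ptgds, averaged 1.75 to 2.997 in wild-type, -0.50 to 1.77 in null and -0.59 to 1.58 in siRNA samples (5 of 14 measured throughout). Between null and siRNA samples 0 of 10 were called by limma, beside 5.88% of all probes tested, with 2 at an unadjusted p under 0.05. Between null and wild type 0 of 10 were called as well, but 9 of the 10 differences were negative and 5 had an unadjusted p under 0.05, with a median of -0.96 beside 0.27 for all probes. With same-numbered samples as a block, Col1a2 and Dcn were called lower in null than in wild type. The part of the fibroblast and meningeal markers in the Ptgds result was not tested. Of the other marker lists, 1 of 7 oligodendrocyte lineage and 1 of 4 endothelial genes were higher in null than in siRNA samples. So was 1 of 5 neuronal genes, beside 3.61% of all probes tested. None of these held with array pairs as a random block.

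**Figure D4:**
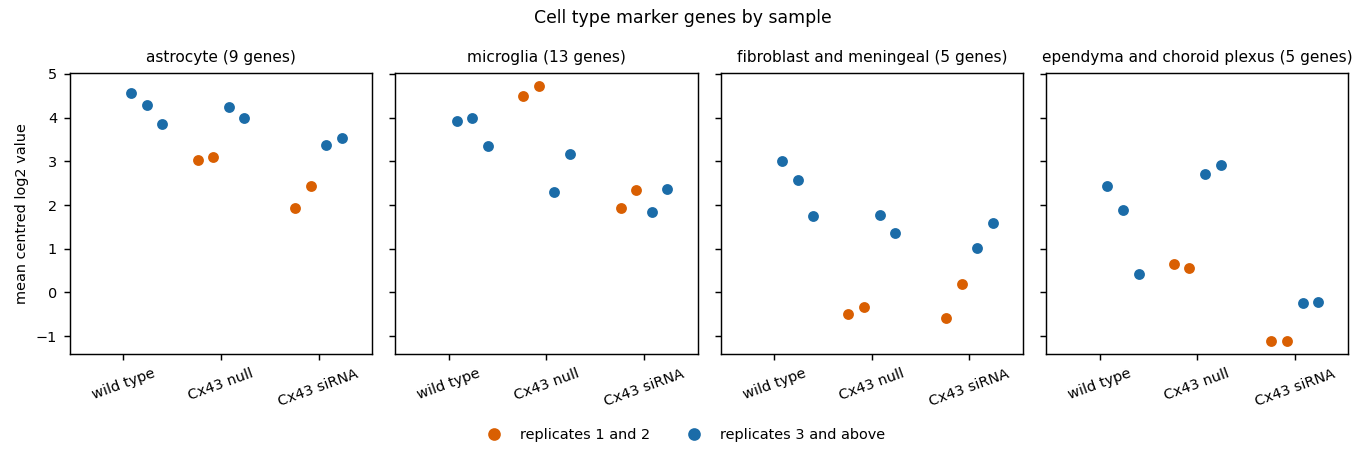
Mean centred log2 value (vertical axis) of the markers of 4 cell types measured in all 11 samples, per sample and group, with colours for the replicate sets; the 9 astrocyte genes include Gja1. Microglial means are 1.83 to 2.37 in the siRNA samples and reach 4.72 in the null samples, and ependymal and choroid plexus means are below 0 in the siRNA samples only.

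The genes whose pattern over the 11 samples was most like that of Hpgd, by Pearson correlation among 9305 probes with 1 symbol and a value in every sample, were Coro1a (0.987), Gria2 (0.981), Wipi1 (0.968), Ccdc80 (0.963) and Arhgap4 (0.952). Coro1a, an actin-binding protein of leukocytes and 1 of the microglial markers, averaged 3.73 ± 0.45 (SD, n = 3) in wild-type samples, 3.27 ± 0.62 (SD, n = 4) without Cx43 and 0.67 ± 0.48 (SD, n = 4) after siRNA. Gria2 is a glutamate receptor subunit and Ccdc80 a matrix protein. The other patterns had the same order, with null close to wild type and siRNA lower by 1.97 to 3.13 on the log2 scale.

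For Ptgs2 the most alike were Isg20 (0.944), Ifi205 (0.941), Gbp2 (0.936), Arrdc4 (0.930) and Nqo1 (0.930). Isg20, Ifi205 and Gbp2 are known as interferon-induced genes and Nqo1 as a target of the oxidative stress response. Ifi205 averaged -0.70 ± 0.92 (SD, n = 3) in wild-type samples, -0.38 ± 0.68 (SD, n = 4) without Cx43 and 4.11 ± 1.40 (SD, n = 4) after siRNA. All of these correlations rest on 3 groups of samples and share array, dye and replicate set, and they are given as a description.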

How the data were processed

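The series holds 14 two-colour array samples of cultured mouse astrocytes (6 wild-type, 4 null, 4 siRNA), grouped by their titles. The authors deposited log2 values, 1 per probe and sample; no label names the scanner, background correction or normalization, and the values show a median of about 0 in each of 48 print blocks. No intensity was used, so the precision is limited by the number of arrays, with signal over background unknown. All value columns matched a sample (0 unmatched).

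Probe symbols came from the platform annotation (18179 probes with 1 symbol, 87 with several, 15334 unnamed). Per probe, limma 3.58.1 in R 4.3.3 (lmFit, eBayes) fitted group, dye and replicate set (1 and 2 against 3 and above) over 11 samples. The 20342 probes with at least 2 values per group and estimable differences were tested, with two-sided p-values adjusted by Benjamini-Hochberg and called under 0.05. The fits were tested on simulated data. The 10 genes, the pathway and marker lists were chosen with earlier results of these data known. Named are all 10 genes, Gja1, called pathway genes and, for Hpgd and Ptgs2, the 5 most correlated probes. A gene with several probes was counted by the probe with the highest mean. Pparg was named after its values were seen, and Pla2g2d, Pla2g5, Anxa1 and Ptgfr for calls in alternative fits. The markers Dnah11, C1qc, Ly86, Col1a2 and Dcn were named for such calls too, and Fabp7 and Slc1a2 for their direction.

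Same-numbered null, siRNA and wild-type samples deviated together from their group means (8 pairs, correlation 0.12 to 0.65 over 14243 probes). Such samples also share the dye and the replicate set, so these correlations cannot show a pairing by number beyond those. The replicate number was also fitted as a block, leaving out wild-type replicate 6. Other alternatives were array pairs as a random block, other sample sets, normalizations and filters, and each sample left out.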

Additional observations from a re-analysis of the deposited data

How the results depend on the processing

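Counts of called probes moved widely, and the cause was not tested beyond each fit's own construction. For null against wild type (120), they were 0 without the replicate set, 368 with the replicate block, 3 with array pairs, 877 in replicates 3 and above alone, 0 with all 14 samples as deposited, 308 after quantile and 29 after scale normalization, 73 among probes measured in all 11 samples, and 26 or, with array pairs, 0 with wild-type replicates 1 and 2 realigned. For siRNA against wild type (1502), they were 66 without the replicate set, 252 with array pairs, 49 as deposited, 571 after scale normalization, and 996 or, with array pairs, 120 realigned. For null against siRNA (1196), they were 75 without the replicate set, 2282 with the replicate block, 129 with array pairs, 1893 in replicates 3 and above, 19 as deposited, 775 after scale normalization, and 668 or, with array pairs, 59 realigned. Leaving out single samples gave 1 to 223, 225 to 1589 and 299 to 1839 calls, and 263 to 5978 for the difference between replicate sets (3124). The realigned fits were chosen after seeing the data. Gja1 (null minus wild type) lost its call without the replicate set (-5.21), with array pairs (-3.11), as deposited (-5.21), after scale normalization (-3.31) and realigned (-3.31, with array pairs -3.06). Its null minus siRNA difference of -2.90 lost its call without the replicate set, with array pairs, as deposited, and realigned with array pairs. Leaving out single samples, the 3 Gja1 differences ran from -3.9996 to -2.65, from -1.10 to 0.25 (above 0 without wild-type replicate 4) and from -2.97 to -2.83. Hpgd kept its direction and side of the threshold between null and siRNA in all of these fits, and Ptgs2 in all but the realigned fit with array pairs (adjusted p = 0.132). Both genes were chosen for their values in these siRNA samples, so nothing is read from their calls staying. Ptgds calls were also lost without the replicate set (adjusted p = 0.265 and 0.165), as deposited (0.577 and 0.385), realigned with array pairs (0.302 and 0.208) and, for probe 2854, in replicates 3 and above alone (0.0602). Null minus wild type changed sign for Ptgds probe 2854 without the replicate set (-0.048) and with the block (-0.0038), and for Ptgs2 with the block (0.15) and without dye (0.16); none of these was called. Null minus siRNA for Ptges was -0.024 after quantile normalization, and siRNA minus wild type for Gstm2 was 0.036 as deposited. Leaving out single samples, null minus wild type ran from -0.81 to 0.36 for Hpgd, -0.61 to 0.80 for Ptgs2 and -0.0038 to 0.95 for Ptgds probe 2854, and null minus siRNA from -0.40 to 0.057 for Ptges2. The replicate block changed no other call of the chosen genes between null and wild type or null and siRNA. Scaling moved the median of all probes for null minus siRNA from 0.11 to 0.02 (quantile) and 0.23 (scale).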

Other observations

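The 3 wild-type samples kept out of the fits also hold values for some of the genes. Hpgd and Ptgs2 lie in stretches of the array where wild-type replicates 1 and 2 needed no shift of position to match the other samples. Hpgd read 4.43 and 4.42 there, and Ptgs2 -0.74 and -0.34. The Ptgis probe lies in a stretch that needed no shift either (r = 0.65, beside 0.54 at the next best position) and had no value in these samples, so its measurement in wild type was limited to replicates 3, 4, 6 and, at -0.55, replicate 5. Ptgds probe 2854, also unshifted, read -1.80 in replicate 2, a value within the siRNA range, and had none in replicate 1. At their matched positions Hpgds read -2.35 and -1.51, and Alox5ap -1.05 and 0.05, below the wild-type values of replicates 3, 4 and 6. Ptges2 matched 2 rows away, where it read 0.29 and 0.61. Wild-type replicate 5 had an SD of 0.476 over all probes, and the quantity in that column is unknown.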
